A study of Homo sapiens with 10 samples.

Results

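The genes described here build cholesterol and fatty acids, or sense and carry sterols, in HEK-293 cells treated with small interfering RNAs (siRNAs) against the long noncoding RNAs LINC00324 and LOC400043. They were chosen by symbol from a list of 32: 24 sterol genes, most of them controlled by sterol regulatory element binding proteins (SREBPs), and 8 genes of fatty acid and phosphatidate synthesis. Of the 32, 30 had a probe set in both deposited tables, out of 18480 genes in each. ACAT2 and HSD17B7 had none and are named only. HEK-293 is an established line derived from human embryonic kidney. Cells were transfected with RNAiMax at 10 nM siRNA, and their RNA was hybridised to HuGene-1_0-st arrays from Affymetrix. The 10 arrays formed 5 groups of 2: a scramble siRNA, LINC00324 siRNA 1 and siRNA 2, and LOC400043 siRNA 1 and siRNA 2. The labels call the arrays of a group biological replicates and do not say how they were grown apart, so that p-values measure the spread between these samples. All groups share 1 cell line and the transfection, and 2 arrays a group limit the precision.

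Cholesterol is made from acetyl-CoA through mevalonate, farnesyl diphosphate, squalene and lanosterol. When sterols are scarce, the SREBPs, encoded by SREBF1 and SREBF2, are escorted by SCAP from the endoplasmic reticulum to the Golgi apparatus, cleaved, and moved to the nucleus, where they switch on these enzymes. The INSIG proteins hold SCAP back when sterols are plentiful, and INSIG1 is itself an SREBP target. SREBF1 products favour the fatty acid enzymes and the SREBF2 product favours the sterol enzymes.

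The DNA upstream of 4 members is shown, because these had the smallest p-values for the mean of both LOC400043 siRNAs against scramble among members with an entry in the promoter table. Each is the 250 bases before the gene's start, 5′ to 3′ on the gene's strand, from RefSeq on GRCh38.p14. They lie at chr10:100346983-100347232 (plus strand) for SCD, chr7:155297628-155297877 (plus) for INSIG1, chr21:46228775-46229024 (minus) for LSS and chr11:61817004-61817253 (minus) for FADS1. Capitals mark matches, on either strand, to the E-box CACGTG, the CCAAT box and the GC box GGGCGG; the sterol regulatory element TCACNCCAC was searched as well.
SCD: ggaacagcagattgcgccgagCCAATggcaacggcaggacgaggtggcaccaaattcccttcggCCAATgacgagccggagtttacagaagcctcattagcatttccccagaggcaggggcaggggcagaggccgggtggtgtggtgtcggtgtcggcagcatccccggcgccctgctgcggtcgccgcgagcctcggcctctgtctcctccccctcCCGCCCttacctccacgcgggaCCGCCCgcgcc
INSIG1: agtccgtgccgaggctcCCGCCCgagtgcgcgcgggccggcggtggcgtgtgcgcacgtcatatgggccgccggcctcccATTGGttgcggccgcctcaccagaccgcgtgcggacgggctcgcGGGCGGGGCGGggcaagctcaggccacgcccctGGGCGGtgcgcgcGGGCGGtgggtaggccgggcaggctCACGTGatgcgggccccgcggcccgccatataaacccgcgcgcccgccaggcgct
LSS: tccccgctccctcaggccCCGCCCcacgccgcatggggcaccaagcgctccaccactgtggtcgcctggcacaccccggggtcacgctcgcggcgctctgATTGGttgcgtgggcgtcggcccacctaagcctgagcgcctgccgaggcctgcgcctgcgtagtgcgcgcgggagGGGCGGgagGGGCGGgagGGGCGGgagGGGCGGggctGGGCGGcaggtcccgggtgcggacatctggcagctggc
FADS1: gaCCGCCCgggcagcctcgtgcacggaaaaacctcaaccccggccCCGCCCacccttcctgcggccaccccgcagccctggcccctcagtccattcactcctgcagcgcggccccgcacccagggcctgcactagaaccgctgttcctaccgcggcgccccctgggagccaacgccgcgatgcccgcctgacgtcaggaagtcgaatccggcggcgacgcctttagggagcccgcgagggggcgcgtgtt

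INSIG1 held an E-box 55 bases before its start (position -55), a CCAAT box and 5 GC boxes, 2 of which overlap each other. LSS held a CCAAT box and 6 GC boxes, 4 of them at a spacing of 9 bases. SCD held 2 CCAAT boxes and 2 GC boxes, and FADS1 held 2 GC boxes. Over the 39 windows of the 27 members with an entry, the CCAAT box was found in 56.4%, against 32% of all 35093 windows of that length. The GC box was in 87.2% against 42.6%, the E-box in 10.3% against 6.34%, and TCACNCCAC in 2.56% (1 window, of SREBF2) against 0.883%. These are letter matches in a short window and describe the sequence alone.

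Array medians lay between 7.53 and 7.73 on the log2 scale over both tables. The scramble arrays have different values in the 2 tables, so each table was analysed alone, and no test was made between the siRNAs of the 2 RNAs. Both comparisons use the same scramble samples. The probe set of LINC00324 (listed as C17orf44) read 5.79 and 5.80 with scramble, 5.37 and 5.03 with LINC00324 siRNA 1, and 5.24 and 5.60 with siRNA 2. Its log2 differences of -0.60 (SE 0.15, adjusted p = 0.184 by limma) and -0.38 (SE 0.15, adjusted p = 0.308) did not pass, and the LOC400043 siRNA arrays, at 5.42 to 5.47, also lay below their scramble values of 5.76 and 5.58. No probe set of LOC400043 was found, so its silencing was not analysed here. Of 6 HEK-293 markers (renal and neuronal genes), all had a scramble mean of 5 or more and EYA1, INA, NEFM and SALL1 were above 8. The scramble means of 21 blood, fibroblast, squamous and hepatocyte markers were at most 8.11, and of 4 adipocyte markers CFD was above 8. The HEK-293 markers' summed log2 level was 53.9 on both scramble arrays, 54.0 to 54.1 with LOC400043 siRNA 1 and 52.5 to 52.6 with siRNA 2, and 4 of the 6 were called with at least 1 of these siRNAs; their part in the results below was not tested.

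With the LINC00324 siRNAs no member of either branch passed the test. A gene is called at an adjusted p under 0.05 (limma, Benjamini-Hochberg over 18480 genes), which was met by 0 of 30 members with siRNA 1, where 0.281% of all genes were called lower and 0.216% higher. With siRNA 2 it was again 0 of 30, against 1.34% lower and 0.503% higher, and for the mean of both siRNAs 0 of 30, against 0.281% and 0.195%. At an unadjusted p under 0.05 there were 3, 4 and 5 of 30 members, near the 13.2%, 15.9% and 14.1% of all genes. The median member stood at -0.03 with siRNA 1 and -0.05 with siRNA 2 (log2 difference), and the median of all genes at 0.02 and 0.01. In bulk RNA, fewer cells of a type and less RNA per cell cannot be told apart.

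The member farthest from scramble was STARD4, which encodes a carrier of cholesterol between membranes. Its log2 level was 7.98 and 8.20 with scramble, 7.17 and 7.64 with siRNA 1, and 7.84 and 7.61 with siRNA 2. The siRNA arrays were all below the scramble arrays, but the siRNA 1 arrays had an SD of 0.33 (n = 2). Its difference was -0.69 with siRNA 1 (SE 0.17, adjusted p = 0.176 by limma) and -0.37 with siRNA 2 (adjusted p = 0.389).

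IDI1, the isomerase that readies isoprene units for chain building, read 10.49 and 10.57 with scramble, 10.30 and 10.49 with siRNA 1 and 10.09 and 10.07 with siRNA 2. The siRNA 2 difference of -0.45 (SE 0.09, 95% interval -0.68 to -0.23) had an adjusted p of 0.0698 by limma, the smallest among the members in either siRNA comparison. ACACA, the acetyl-CoA carboxylase that commits carbon to fatty acids, stood at -0.30 with siRNA 1 (SE 0.07, adjusted p = 0.173 by limma) and at 9.68 on both arrays against 9.99 and 9.98. In 6 members (MVK, IDI1, FDPS, LSS, SREBF2 and STARD4) the 4 siRNA arrays all lay below both scramble arrays, as they did for 11.8% of all genes. In CYP51A1 and FASN they all lay above, as for 7.87%.

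INSIG1, itself switched on by SREBPs, read 10.70 and 10.73 with scramble, 10.68 and 10.73 with LINC00324 siRNA 1, and 10.64 and 10.57 with siRNA 2, so the siRNA 1 arrays overlapped scramble and the siRNA 2 arrays lay just below. The 95% interval of its difference was -0.20 to 0.18 with siRNA 1 and -0.30 to 0.08 with siRNA 2. SCD was represented in this table by probe set 7935776, whose 15 probes lie on the minus strand of chromosome 10 (102124181 to 102124561, the build is not stated), while RefSeq places SCD on the plus strand. Its levels there were low, 6.01 to 6.60 over the 6 arrays. The plus-strand probe set 7929816, taken from the whole-series value table, read 11.75 and 11.83 with scramble, 11.93 and 12.01 with siRNA 1, and 11.94 and 11.92 with siRNA 2. All 4 were above scramble by a mean of 0.18 (SE 0.08, adjusted p = 0.56 by limma) and 0.14 (adjusted p = 0.656), which did not pass. These 2 adjusted p-values are over 33297 probe sets, and those of the other members are over 18480 genes. The other 29 members used the same probe set in both tables.

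**Figure D1:**
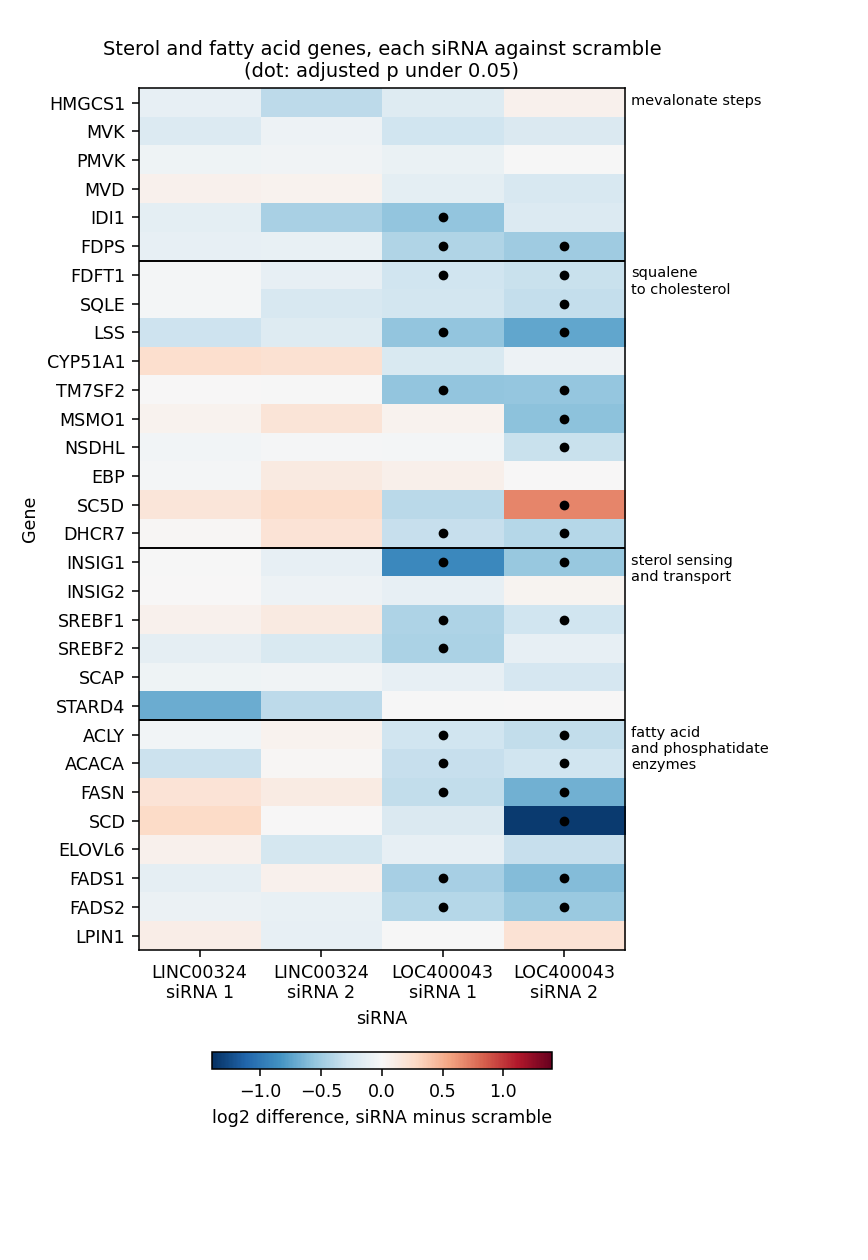
Log2 difference from scramble (colour, siRNA minus scramble, mean of 2 arrays each) for the 30 measured members in rows and the 4 siRNAs in columns, with dots where limma's adjusted p is under 0.05. The LINC00324 columns hold no dot, and the LOC400043 columns hold 14 and 17, of which 1, SC5D with siRNA 2, is a rise. SCD is read by different probe sets in the LINC00324 and LOC400043 columns.

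With the LOC400043 siRNAs, genes of both branches fell, INSIG1, LSS and TM7SF2 among the sterol genes and FASN, FADS1 and FADS2 among the fatty acid genes. With siRNA 1, 14 of 30 members were called lower and 0 higher, against 7.46% and 4.05% of all genes. With siRNA 2, 16 were lower and 1 higher, against 13.8% and 7.9%. For the mean of both, 16 were lower and 0 higher, against 11.5% and 6.08%. The median member stood at -0.28 with siRNA 1 and -0.30 with siRNA 2, where the median of all genes was 0.03 and 0.01. In 18 of 30 members the 4 siRNA arrays all lay below both scramble arrays, against 17.1% of all genes, and in 0 they all lay above, against 13.5%.

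The counts depend on the number of arrays, over all genes as among the members. Without either array of siRNA 1 only INSIG1 remained called with siRNA 1, and without either array of siRNA 2 that count was 9, with ACACA, ACLY, DHCR7, FASN and FDFT1 lost. The share of all genes called lower with siRNA 1 went from 7.46% to 1.62% or 0.958% without an array of siRNA 1, and to 4.83% without either array of siRNA 2. With siRNA 2 the count was 11 without either of its own arrays, with ACACA, ACLY, FDFT1, NSDHL, SQLE and SREBF1 lost, and 6.39% or 7.3% of all genes were then lower with siRNA 2. Without the second scramble array the counts were 10 and 14, with 4.45% and 11.1% of all genes lower. With both siRNAs taken as 1 group of 4 arrays, 7 members were lower, against 2.18% of all genes. With arrays centred on their medians the split of all genes for the mean of both moved from 2118 lower and 1124 higher to 1622 and 1592, and the members stayed at 16 lower and 0 higher. That centring ended the calls of FDFT1 with siRNA 1 and of NSDHL, SREBF1 and ACACA with siRNA 2.

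The early, mevalonate part of the pathway held the fewest calls: of 6 measured members 2 fell with siRNA 1 and 1 with siRNA 2. These were 33.3%, against 7.46% of all genes, and 16.7%, near the 13.8% of all genes. Differences between the parts of the pathway were not tested. FDPS, which makes farnesyl diphosphate, read 9.75 and 9.73 with scramble, 9.37 and 9.28 with siRNA 1, and 9.24 on both siRNA 2 arrays. Both siRNA groups lay clear of scramble, at -0.42 (SE 0.07, adjusted p = 0.0114 by limma) and -0.50 (SE 0.07, adjusted p = 0.00324). IDI1 read 10.39 and 10.50 with scramble, 9.90 on both siRNA 1 arrays, and 10.23 and 10.28 with siRNA 2. It fell with siRNA 1 by 0.55 (SE 0.07, adjusted p = 0.00566), while its siRNA 2 difference of -0.19 had an adjusted p of 0.0986 by limma. HMGCS1, MVK, PMVK and MVD, the enzymes from HMG-CoA synthesis to mevalonate decarboxylation, had differences between -0.28 and 0.06 and were not called with either siRNA.

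From squalene to cholesterol, 4 of 10 members fell with siRNA 1, against 7.46% of all genes. With siRNA 2, 7 fell and 1 rose, against 13.8% and 7.9% of all genes. LSS, which folds squalene epoxide into lanosterol, read 9.24 and 9.29 with scramble, 8.73 and 8.71 with siRNA 1, and 8.61 and 8.46 with siRNA 2. Its groups did not overlap, and the differences were -0.55 (SE 0.07, adjusted p = 0.00713 by limma) and -0.73 (SE 0.07, adjusted p = 0.00149), a 1.46-fold and a 1.66-fold fall. TM7SF2, a sterol reductase of the steps after lanosterol, read 8.05 and 7.95 with scramble, 7.48 and 7.43 with siRNA 1, and 7.49 and 7.43 with siRNA 2. The siRNA groups lay at nearly the same level, at -0.55 and -0.54 (SE 0.07 each, adjusted p = 0.00583 and 0.00305), with a 95% interval of -0.17 to 0.16 for the difference between them.

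DHCR7, the reductase that gives cholesterol from its last precursor, read 10.85 and 10.86 with scramble, 10.55 and 10.52 with siRNA 1, and 10.44 and 10.47 with siRNA 2. It fell by 0.32 (SE 0.06, adjusted p = 0.0226 by limma) and by 0.40 (SE 0.06, adjusted p = 0.00589). FDFT1, the squalene synthase, fell by 0.28 and 0.31 (SE 0.07 each, adjusted p = 0.0386 and 0.0172). SQLE, the epoxidase that acts next, fell with siRNA 2 by 0.33 (SE 0.07, adjusted p = 0.016) and stood at -0.26 with siRNA 1 (adjusted p = 0.0556). CYP51A1, the lanosterol demethylase, and EBP, a sterol isomerase, were called with neither siRNA.

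MSMO1 (SC4MOL in the tables), NSDHL and SC5D (SC5DL in the tables) differed between the siRNAs. MSMO1, the oxidase that removes methyl groups from lanosterol's successors, read 10.60 and 10.77 with scramble, 10.63 and 10.84 with siRNA 1, and 10.12 and 10.10 with siRNA 2. Only its siRNA 2 arrays lay below scramble, at -0.57 (SE 0.09, adjusted p = 0.00685 by limma). NSDHL, the dehydrogenase of the same demethylation, fell with siRNA 2 by 0.31 (SE 0.07, adjusted p = 0.0246) and stood at -0.03 with siRNA 1. SC5D, a desaturase acting just before DHCR7, read 10.89 and 11.16 with scramble, 10.61 and 10.68 with siRNA 1, and 11.70 and 11.72 with siRNA 2. It rose with siRNA 2 by 0.68 (SE 0.10, adjusted p = 0.00433) and was the only member that rose with either LOC400043 siRNA. With siRNA 1 both its arrays were below scramble, at -0.38 (adjusted p = 0.054).

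HSD17B7, the reductase of that demethylation, had no probe set, but its pseudogene HSD17B7P2 had one, named here after its values were seen. It stood at -0.33 with siRNA 1 (adjusted p = 0.175 by limma) and fell with siRNA 2 by 0.56 (SE 0.14, adjusted p = 0.0283). Whether RNA of HSD17B7 binds these probes was not tested.

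Among the sensing and transport genes, 3 of 6 fell with siRNA 1 and 2 with siRNA 2, against 7.46% and 13.8% of all genes. INSIG1 read 10.77 and 10.74 with scramble, 9.87 and 9.84 with siRNA 1, and 10.20 and 10.25 with siRNA 2. The 3 groups lay apart, with siRNA 1 lowest. The differences were -0.90 (SE 0.06, adjusted p = 0.0014 by limma), a 1.87-fold fall, and -0.53 (SE 0.06, adjusted p = 0.00236), a 1.45-fold fall. Its paralogue INSIG2 stood at -0.11 (95% interval -0.32 to 0.11) and 0.04 (-0.18 to 0.25) and was not called.

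SREBF1 read 8.08 and 8.03 with scramble, 7.59 and 7.66 with siRNA 1, and 7.81 and 7.73 with siRNA 2, and fell by 0.43 (SE 0.07, adjusted p = 0.0115 by limma) and 0.28 (SE 0.07, adjusted p = 0.0262). SREBF2 read 9.73 and 9.75 with scramble, 9.32 and 9.28 with siRNA 1, and 9.63 and 9.62 with siRNA 2. It fell with siRNA 1 by 0.44 (SE 0.06, adjusted p = 0.00819), and the siRNA 2 difference of -0.11 had an adjusted p of 0.258. SCAP was called with neither siRNA (-0.11 and -0.23). Nor was STARD4, which stood at -0.01 (95% interval -0.18 to 0.17) and 0.00 (-0.17 to 0.18) here.

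**Figure D2:**
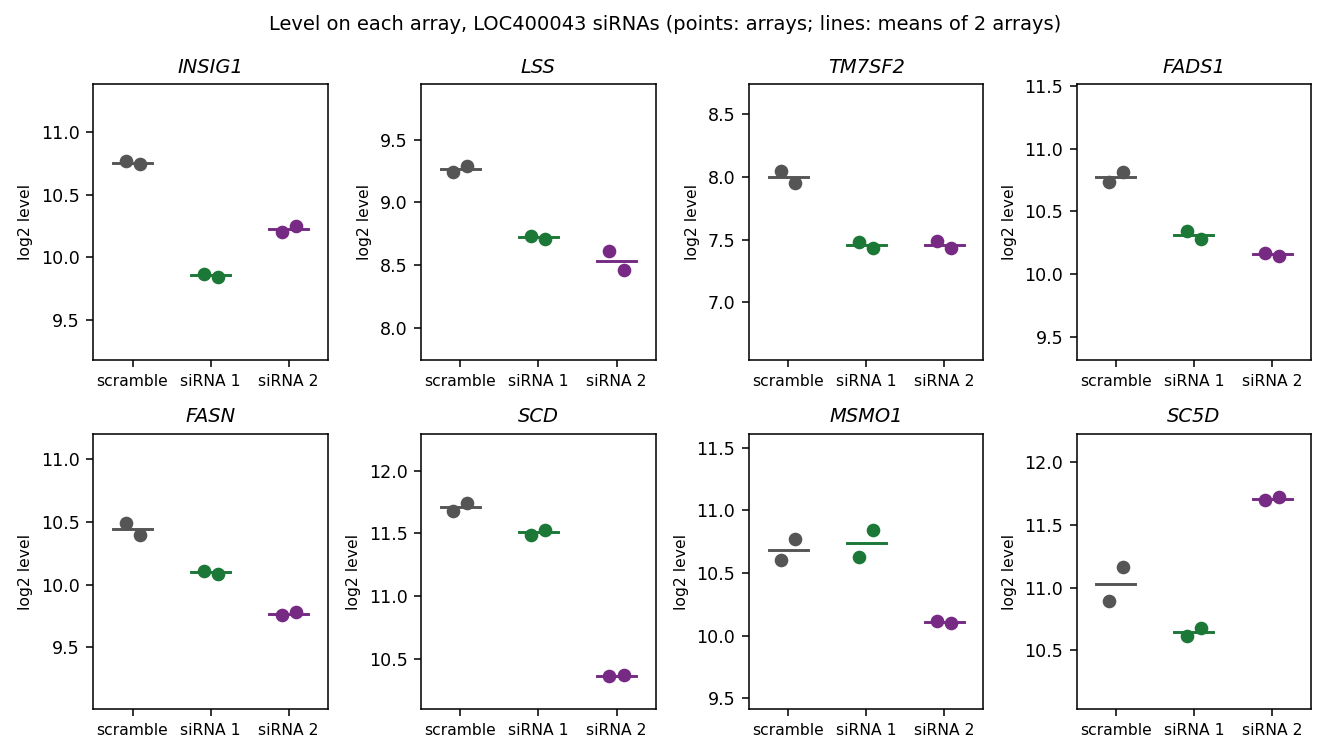
Log2 level on each array of the LOC400043 table for 8 members, with points for arrays and lines for the means of the 2 arrays of scramble, siRNA 1 and siRNA 2; each panel spans the same log2 range. INSIG1, LSS, TM7SF2, FADS1 and FASN were below scramble with both siRNAs, SCD and MSMO1 fell with siRNA 2, and SC5D was highest with siRNA 2 (11.70 and 11.72).

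Of the 8 fatty acid and phosphatidate enzymes, 5 fell with siRNA 1 and 6 with siRNA 2, against 7.46% and 13.8% of all genes. FASN, the synthase that builds palmitate, read 10.49 and 10.40 with scramble, 10.11 and 10.09 with siRNA 1, and 9.76 and 9.78 with siRNA 2. Its level stepped down from scramble to siRNA 1 to siRNA 2, with differences of -0.34 (SE 0.07, adjusted p = 0.0228 by limma) and -0.67 (SE 0.07, adjusted p = 0.00137). SCD, the desaturase that turns stearate into oleate, was read by the plus-strand probe set in this table. It stood at 11.68 and 11.74 with scramble, 11.49 and 11.53 with siRNA 1, and 10.36 and 10.37 with siRNA 2. With siRNA 2 it fell by 1.34 (SE 0.06, adjusted p = 0.000275), or 2.53-fold, while the siRNA 1 difference of -0.20 had an adjusted p of 0.102 by limma.

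FADS1 and FADS2, the desaturases of polyunsaturated fatty acids, are neighbours on chromosome 11 with opposite strands, and their probe sets overlap in the table's coordinates. FADS1 read 10.73 and 10.81 with scramble, 10.34 and 10.28 with siRNA 1, and 10.17 and 10.14 with siRNA 2. The differences were -0.46 (SE 0.07, adjusted p = 0.00911 by limma) and -0.61 (SE 0.07, adjusted p = 0.00184). FADS2 read 9.63 and 9.70 with scramble, 9.25 and 9.27 with siRNA 1, and 9.15 on both siRNA 2 arrays, and fell by 0.40 and 0.52 (SE 0.06 each, adjusted p = 0.0117 and 0.00264). Neither gene's siRNA arrays overlapped scramble.

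ACLY, which supplies cytosolic acetyl-CoA to both branches, fell by 0.28 and 0.34 (SE 0.06 each, adjusted p = 0.0368 and 0.0115 by limma). ACACA fell by 0.32 and 0.28 (SE 0.07 each, adjusted p = 0.0328 and 0.0313). ELOVL6, the elongase of palmitate, stood at -0.12 and -0.32 and was not called (adjusted p = 0.487 and 0.0573). LPIN1, a phosphatidate phosphatase and transcriptional coregulator, stood at -0.01 and 0.20 and was not called either.

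Set side by side, 9 of 22 sterol members and 5 of 8 fatty acid members fell with siRNA 1, against 7.46% of all genes. With siRNA 2, 10 of 22 and 6 of 8 fell, against 13.8% of all genes. The median difference was -0.27 for sterol members and -0.30 for fatty acid members with siRNA 1, and -0.22 and -0.43 with siRNA 2. The difference between the branches was not tested.

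The siRNAs of the LOC400043 pair differed from each other in 8 of 30 members, 4 lower and 4 higher with siRNA 1 than with siRNA 2, where 7.5% and 9.63% of all genes were called in those directions. This comparison uses no scramble array. SCD was 1.15 higher with siRNA 1 (log2, SE 0.06, 95% interval 0.99 to 1.30, adjusted p = 0.000336 by limma), and MSMO1 0.62 higher (SE 0.09, adjusted p = 0.00611). FASN and NSDHL were 0.34 and 0.28 higher (adjusted p = 0.0166 and 0.0424). In the opposite direction SC5D stood at -1.06 (SE 0.10, 95% interval -1.29 to -0.83, adjusted p = 0.00128), INSIG1 at -0.37 (SE 0.06, adjusted p = 0.00977), IDI1 at -0.35 (SE 0.07, adjusted p = 0.0154) and SREBF2 at -0.32 (SE 0.06, adjusted p = 0.0148). Leaving out any 1 of the 4 siRNA arrays kept the SCD, MSMO1 and SC5D calls and lost the others. Fewer of all genes were called in these refits too, in both directions.

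For the LINC00324 pair 0 of 30 members differed between siRNAs by limma, against 0.785% of all genes lower and 2.28% higher with siRNA 1, and 4 members had an unadjusted p under 0.05, where 17.6% of all genes had one. The differences ran from -0.32 to 0.32.

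**Figure D3:**
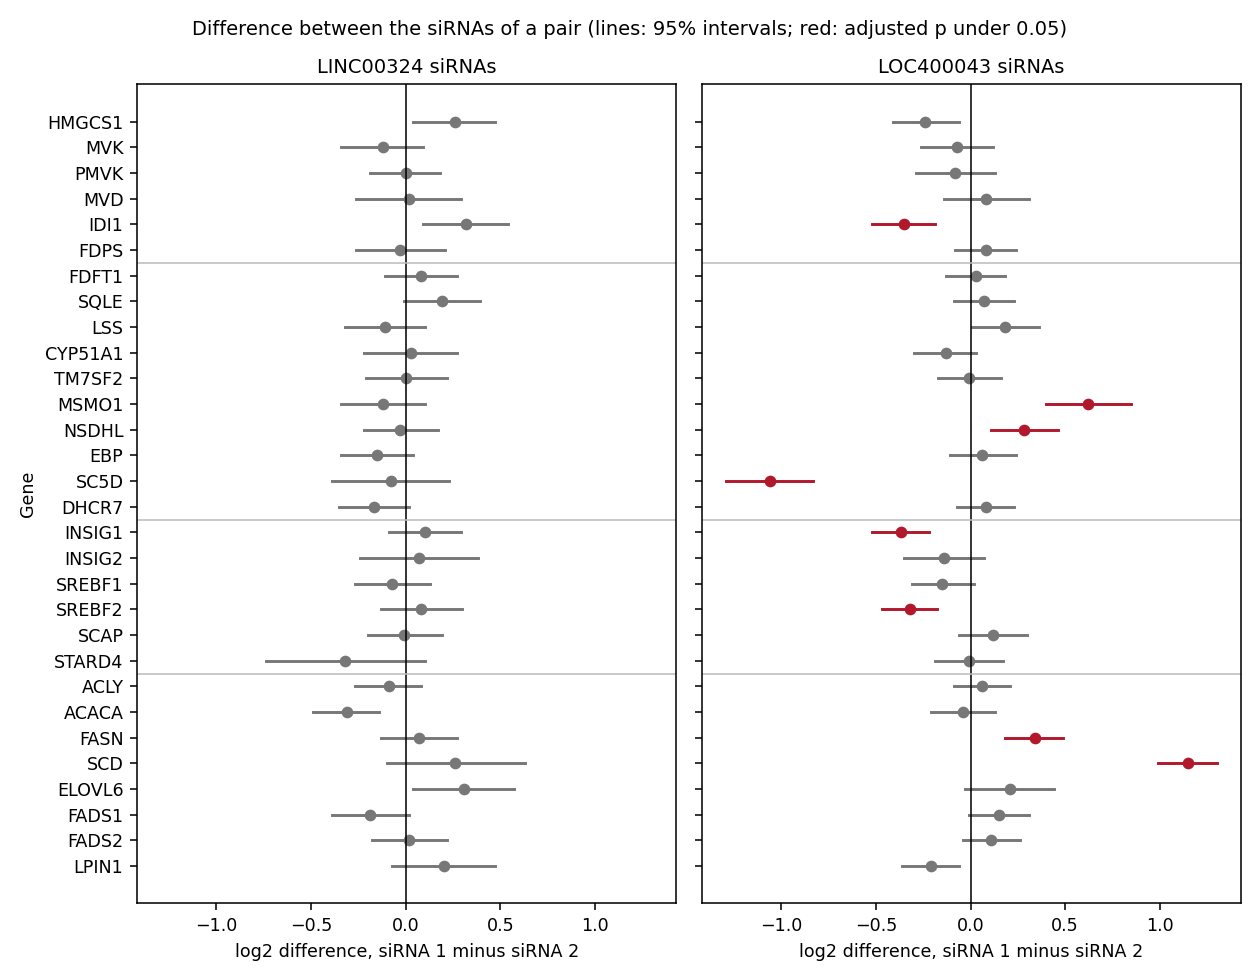
Log2 difference between siRNA 1 and siRNA 2 of each pair (points) with 95% intervals (lines) for the 30 members; red marks an adjusted p under 0.05 by limma and grey lines part the role groups. The LINC00324 pair has no red point, and the LOC400043 pair has 8, with SCD at 1.15 and SC5D at -1.06 farthest from 0.

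Of 19 other sterol genes, 3 fell and 1 rose with LOC400043 siRNA 1 (15.8% and 5.26%, against 7.46% and 4.05% of all genes). With siRNA 2, 4 fell and 2 rose (21.1% and 10.5%, against 13.8% and 7.9% of all genes). Most were not called, 15 with siRNA 1 and 13 with siRNA 2, and the median differences were -0.09 and -0.04. SCARB1, the receptor that takes up cholesterol from high-density lipoprotein, read 9.52 and 9.35 with scramble, 8.83 and 8.68 with siRNA 1, and 8.71 and 8.60 with siRNA 2. It fell by 0.68 (SE 0.09, adjusted p = 0.00685 by limma) and 0.78 (SE 0.09, adjusted p = 0.00224), clear of scramble on every array. MMAB, a cobalamin enzyme gene that shares its promoter region with MVK, fell by 0.37 and 0.48. SOAT1, which esterifies cholesterol for storage, rose by 0.48 (SE 0.09, adjusted p = 0.0199) and 0.55 (SE 0.09, adjusted p = 0.00684). With the LINC00324 siRNAs 0 of these 19 genes were called by limma, against 0.281% and 1.34% of all genes lower and 0.216% and 0.503% higher. An unadjusted p under 0.05 was met by 1 and 3 of them, where 13.2% and 15.9% of all genes met it. SOAT1 stood at 0.47 and 0.60 with these siRNAs (adjusted p = 0.142 and 0.0509 by limma).

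Of 29 other genes of fatty acid and lipid synthesis, 6 fell and 2 rose with LOC400043 siRNA 1 (20.7% and 6.9%, against 7.46% and 4.05% of all genes). With siRNA 2, 9 fell and 2 rose (31.0% and 6.9%, against 13.8% and 7.9% of all genes). ELOVL2, an elongase of very long polyunsaturated fatty acids, read 9.80 and 9.94 with scramble, 9.67 on both siRNA 1 arrays, and 8.77 and 8.92 with siRNA 2. The siRNA 2 arrays alone lay far below, at -1.02 (SE 0.08, adjusted p = 0.000793 by limma), and siRNA 1 at -0.20 was not called. SCD5, a second stearoyl-CoA desaturase, read 7.95 and 7.94 with scramble, 8.77 and 8.86 with LINC00324 siRNA 1, and 7.84 and 7.85 with siRNA 2 of that pair. It rose with LINC00324 siRNA 1 by 0.87 (SE 0.08, adjusted p = 0.0174), and with the LOC400043 siRNAs by 0.38 and 0.35 (SE 0.08 each, adjusted p = 0.0236 and 0.019). ELOVL7, another elongase, fell with LINC00324 siRNA 2 by 0.83 (SE 0.10, adjusted p = 0.0234) and was at 0.05 with siRNA 1. With LINC00324 siRNA 1, 0 of these 29 genes fell and 1 rose (3.45%, against 0.216% of all genes). With siRNA 2 of that pair, 1 fell and 1 rose (3.45% each, against 1.34% and 0.503% of all genes).

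The liver X receptors (LXRs) sense oxysterols and switch on SREBF1 and SCD, described above, and other targets. A separate list of the receptors and other targets had 7 measured genes: NR1H2, NR1H3, ABCA1, ABCG1, MYLIP, LPCAT3 and SMPDL3A. Of these, SMPDL3A fell with LOC400043 siRNA 1 (1 of 7, where 7.46% of all genes were lower), and with siRNA 2 LPCAT3 and NR1H3 fell and NR1H2 rose (2 and 1 of 7, against 13.8% and 7.9% of all genes). LPCAT3, which places polyunsaturated chains into phospholipids, read 10.61 and 10.65 with scramble, 10.47 and 10.31 with siRNA 1, and 9.15 and 9.26 with siRNA 2. It fell with siRNA 2 by 1.43 (SE 0.08, adjusted p = 0.000367 by limma), and siRNA 1 at -0.24 was not called. NR1H2, the receptor LXR beta, rose with siRNA 2 by 0.81 (SE 0.08, adjusted p = 0.00154), and NR1H3, LXR alpha, fell with it by 0.51 (SE 0.09, adjusted p = 0.0072). The cholesterol exporters ABCA1 and ABCG1 and the ubiquitin ligase MYLIP, which degrades the LDL receptor, were called with neither siRNA. ABCA1 stood at 0.04 and -0.28, ABCG1 at 0.04 and -0.04, and MYLIP at -0.07 and 0.05.

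A list of 17 fatty acid oxidation genes held mitochondrial enzymes and carriers and the transcription factor gene PPARA. Of these, 7 fell, PPARA among them, and 1 rose with LOC400043 siRNA 1 (41.2% and 5.88%, against 7.46% and 4.05% of all genes). With siRNA 2, 3 fell and 1 rose (17.6% and 5.88%), near the 13.8% and 7.9% of all genes, and 13 were not called. CPT2, which releases acyl-CoA inside the mitochondrion, read 8.36 and 8.29 with scramble, 7.99 and 7.92 with siRNA 1, and 7.40 and 7.49 with siRNA 2. It fell by 0.37 (SE 0.07, adjusted p = 0.0222 by limma) and 0.88 (SE 0.07, adjusted p = 0.000828). SLC25A20, the carnitine carrier that feeds CPT2, fell by 0.45 and 0.65 (SE 0.10 each, adjusted p = 0.0289 and 0.00452). ACADVL, the first dehydrogenase of long chains, fell with siRNA 1 by 0.63 (SE 0.06, adjusted p = 0.00328), and its siRNA 2 difference of -0.19 had an adjusted p of 0.0794 by limma. The medians of the list were -0.31 and -0.10. With LINC00324 siRNA 1, 0 of these 17 genes were called, against 0.281% of all genes lower and 0.216% higher. With siRNA 2 of that pair, 0 fell and 1 rose (5.88%, against 0.503% of all genes).

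**Figure D4:**
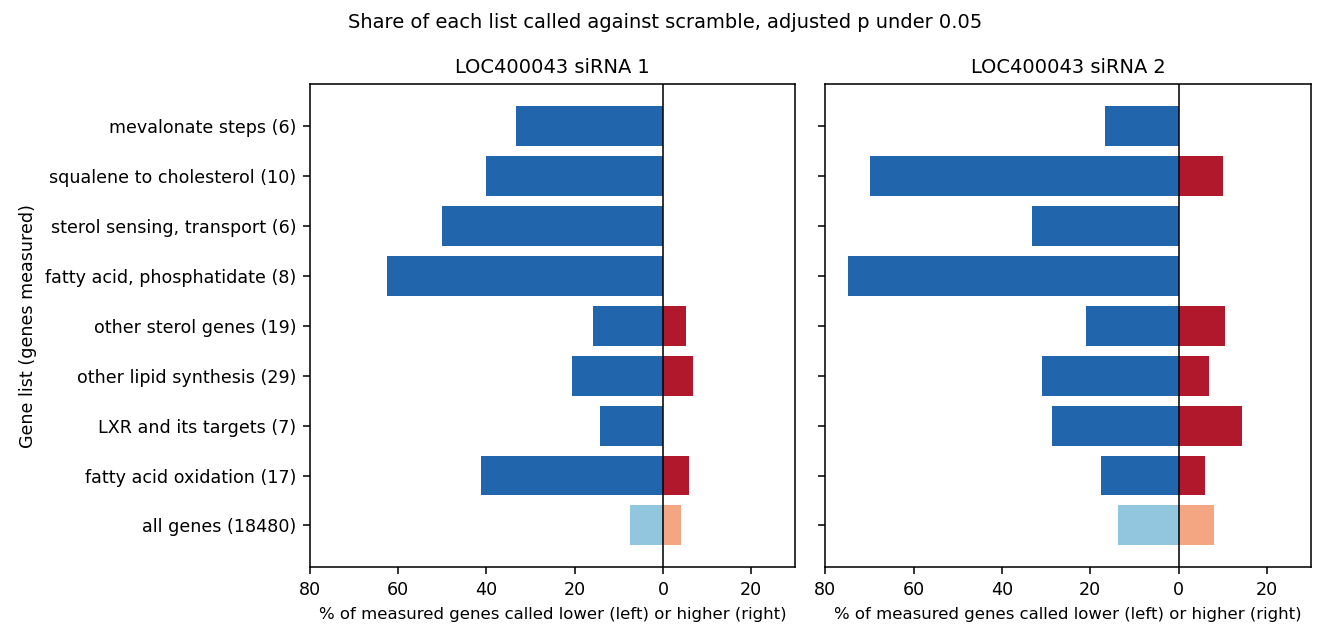
Share of the measured genes of each list called lower (bars to the left, blue) or higher (bars to the right, red) against scramble at an adjusted p under 0.05 by limma, for LOC400043 siRNA 1 and siRNA 2; the palest bars show all 18480 genes and the number in brackets is the size of the list. The lower shares of fatty acid and phosphatidate members were 62.5% and 75.0%, beside 7.46% and 13.8% of all genes.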

How the data were processed

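Expression was measured in HEK-293 cells on 10 arrays (5 groups of 2), and the authors deposited log2 values made with RMA (background correction, quantile normalization and probe summary), per the submitters' processing notes and the file headers. Their tables hold 18480 genes each, for the 6 arrays of 1 noncoding RNA and scramble, with an unadjusted p-value per gene that the authors computed with limma, per the submitters' processing notes. A further table holds 33297 probe sets for all 10 arrays; its LOC400043 and LINC00324 columns equal the 2 tables, so the arrays were not normalized together. The sources used here do not give tool versions, genome build or annotation.

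Each table was fitted alone with limma 3.58.1 in R 4.3.3 (3 residual degrees of freedom, two-sided, moderated), with siRNA 1, siRNA 2 and scramble as groups, no filter on low values, and Benjamini-Hochberg adjustment over all 18480 genes. The differences, SEs, 95% intervals and folds come from these fits. Those of the plus-strand SCD probe set with the LINC00324 siRNAs come from a like fit, adjusted over 33297 probe sets. The fits were also run on simulated data with independent noise, as a check of the code alone. Replicate numbers were not taken to pair the samples, and no block was used in these fits. The comparison of the LOC400043 siRNAs with the LINC00324 siRNAs was not made, since it needed all arrays normalized together. One marker gene of the HEK-293 list is not reported here and was left out of its counts and sums.

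The members and lists were chosen with earlier results of these data known. All members are accounted for and called ones named. Of the other lists at most 3 called genes are named, those with the largest difference with any siRNA. Exceptions are the LXR list, where all called genes are named, and PPARA. Alternatives were a replicate block, a minimum mean of 5 (log2), an intensity trend, a second quantile normalization, centring on medians, both siRNAs as 1 group, and leaving out each array.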

Additional observations from a re-analysis of the deposited data

Results flagged for a closer look

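In 8 members the effects of the 2 LOC400043 siRNAs against scramble differed by limma's test of siRNA 1 minus siRNA 2 (adjusted p under 0.05, log2 values). SC5D (SC5DL) stood at -1.06, with -0.38 for siRNA 1 and 0.68 for siRNA 2. INSIG1 stood at -0.37, IDI1 at -0.35 and SREBF2 at -0.32, each lower with siRNA 1. NSDHL at 0.28, FASN at 0.34, MSMO1 (SC4MOL) at 0.62 and SCD at 1.15 were each lower with siRNA 2. Groups of 2 arrays were too small for a test of single outlying arrays.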

How the results depend on the processing

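The 30 members' counts called by limma kept their side under most settings, and no called member changed sign under any. With an intensity trend, LINC00324 siRNA 1 gave 2, siRNA 2 gave 4, the mean of both 2 and siRNA 1 against siRNA 2 gave 3, all from 0. Calls over all genes rose too under the trend, to 2.99% lower and 2.05% higher with siRNA 1, 5.48% and 2.64% with siRNA 2, 3.7% and 2.1% for the mean, and 4.28% and 5.78% between the siRNAs. A second quantile normalization gave 2 for LINC00324 siRNA 2 (2.7% and 1.53% of all genes) and 1 for siRNA 1 against siRNA 2 (2.32% and 3.91%). With both LOC400043 siRNAs as 1 group the mean gave 7, with adjusted p of 0.323 for SCD, 0.197 for IDI1 and 0.284 for SREBF2. Leaving out each array in turn gave 0 to 1 for LINC00324 siRNA 2, 1 to 15 for LOC400043 siRNA 1, 11 to 18 for siRNA 2, 11 to 17 for the mean and 3 to 8 for siRNA 1 against siRNA 2. A group then keeps 1 array, which is assumed to vary like the others. The shares of all genes called moved in these refits too, so a change in these counts cannot be read as one of the members alone. INSIG1 was called with either LOC400043 siRNA under all 11 alternatives run, and so were SCD, MSMO1, SC5D, LSS, TM7SF2, FDPS, FASN, FADS1, FADS2 and DHCR7 with siRNA 2. With a replicate block the LOC400043 counts were 15 (siRNA 1), 19 (siRNA 2), 19 (mean) and 8 (siRNA 1 against siRNA 2), and those for LINC00324 stayed at 0. Calls over all genes of the LOC400043 table rose too under the block, to 9.3% lower and 5.97% higher with siRNA 1. They rose to 16% and 10.1% with siRNA 2, 13.4% and 8.25% for the mean, and 8.87% and 11.6% between the siRNAs. Replicate differences of the groups correlated across genes at -0.382, -0.185 and 0.598 for LINC00324. For LOC400043 they correlated at 0.091, 0.229 and 0.372, all positive. The numbers were not taken as pairs in the main fits of either table. The value table in place of the LOC400043 table, and all 10 arrays in 1 fit, were not run, because its scramble columns were not normalized with the LOC400043 arrays. With 2 arrays a group, a member's difference near 0.3 on the log2 scale lay close to the limit of what was called in the LOC400043 table. In the LINC00324 table larger ones were not called, such as -0.69 for STARD4 with siRNA 1 and -0.45 for IDI1 with siRNA 2, so the absence of calls there does not exclude changes of that size.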

Other observations

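The authors' deposited table gives an unadjusted p under 0.05 for 15 of the 30 members with the LOC400043 siRNAs, all 15 with a negative difference, where 17.5% of all genes have one. For the LINC00324 siRNAs the authors' deposited table gives one for 3 members, 2 of them negative, beside 7.96% of all genes.

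CFD, an adipocyte marker that was above 8 with scramble, fell by 0.65 with LOC400043 siRNA 1 and by 0.46 with siRNA 2 (limma, adjusted p = 0.0124 and 0.0216). The other 3 adipocyte markers measured were not called.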
